A study of Mus musculus with 8 samples.

Results

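Colon tumors labelled C12, from mice deficient in caspase-12, were compared with colon tumors labelled WT, from wild-type mice. These were 4 of the 8 arrays of the series, 2 for each tumor group. The comparison covered the 13327 probes that were above background on 2 or more of the 8 arrays, meaning a detection p below 0.01, out of 25697 probes on the array, and these held 9341 genes with a symbol. The groups used here were caspase-12 deficient tumors, wild-type tumors, caspase-12 deficient normal colon and wild-type normal colon, each with 2 arrays and all labelled with the strain C57BL/6. Total RNA of whole tissue, labelled with Cy3, was hybridized to Illumina MouseRef-8 v2 bead arrays, which report the brightness of a short probe for each transcript. The sources used here do not give the construct and origin of the deficient line, the sex and age of the animals, how the tumors came about or their site along the colon. Whether the 2 arrays of a group stand for separate animals is also unstated, and the p-values then cover the spread between samples alone, possibly a technical one.

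Caspase-12 belongs with caspase-1 and caspase-11 to the inflammatory caspases, whose genes lie together on mouse chromosome 9. Inflammasomes are complexes of a sensor such as NLRP3, the adaptor ASC and caspase-1, and they release mature interleukin-1 beta and interleukin-18. In the gut these cytokines, the NOD receptors and NF-kB shape the answer to bacteria and to injury, and caspase-12 has been described as a brake on them. The normal colon surface is built of absorptive colonocytes and goblet cells that arise from Wnt-driven stem cells at the crypt base.

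Levels below are log2 intensities after background correction and quantile normalization, and differences are deficient minus wild type, so that 1 log2 unit is a 2-fold change. A gene was called when its p-value from limma, adjusted by Benjamini-Hochberg across the whole set of tested probes, was under 0.05. Where a gene was above background on no array of one group, the difference is given as a lower bound ("at least"), and a log2 value beside it is fitted against the floor and is not itself a bound.

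The 2 wild-type tumor arrays were not alike, and each result should be read with this in view. On principal component 1, which held 49.9% of the variance, the deficient tumors stood at 97.23 and 78.6 and the deficient normal arrays at −41.09 and −40.54. The wild-type tumors stood at 7.08 and −34.02, and the wild-type normal arrays at −30.19 and −37.07. On this component wild-type tumor replicate 2 thus lay beside normal colon. On component 2, with 22.8% of the variance, it stood at 35.25. There the wild-type normal arrays stood at 20.56 and 14.17, and the deficient normal arrays at −44.48 and −56.19. For some gene lists below both wild-type tumors lay near wild-type normal colon. Their median differences from its mean were −0.23 and −0.50 for Wnt genes and −0.32 and −0.20 for cell cycle genes. For absorptive colonocyte genes they were −0.48 and −0.08. In deficient tumors these medians were 3.03 and 2.01, 1.02 and 0.95, and −2.72 and −2.41. B cell genes departed more in wild-type tumors, by 1.34 and 2.04. Wild-type tumor replicate 1 carried keratins and p63 of squamous epithelium that replicate 2 lacked. Deficient tumor replicate 1 carried skeletal muscle transcripts, and both deficient tumors carried more red cell transcript than the other arrays, replicate 1 most. Among the normal arrays, wild-type replicate 1 was high for several Wnt and Paneth cell genes. The log2 difference between the 2 arrays of a group had an SD of 0.762 in deficient tumors, 0.709 in wild-type tumors, 0.48 in deficient normal colon and 0.475 in wild-type normal colon.

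Deficient and wild-type tumors differed widely. Of the 13327 probes 18.5% were called, with 1013 higher and 1448 lower in deficient tumors. By gene, 1647 of 9341 (17.6%) were called, 798 higher (8.54%) and 849 lower (9.09%), and the median difference of all genes tested was 0.02. Of the called genes 1392 differed, by the fitted value, by at least 2-fold and 168 by at least 8-fold, 105 of them higher and 63 lower. In normal colon the same comparison of genotypes called 292 probes (2.19%) and 215 genes (2.3%), 108 higher (1.16%) and 107 lower (1.15%). The effect of genotype differed between the tissues, by the interaction term, for 3.91% of probes and 4.03% of genes. The 2 arrays of each tumor group did not overlap for any gene called, but this was also so for 59.2% of all genes. Leaving out any of 3 tumor arrays moved these counts by more than 1.5 times, to 445 higher and 671 lower probes without deficient tumor replicate 1, 623 and 863 without wild-type tumor replicate 1, and 554 and 636 without wild-type tumor replicate 2. Without deficient tumor replicate 2 the counts were 852 and 1230. No probe that stayed called changed direction under these 4 alternatives. Where the 2 arrays of each group do not overlap, leaving 1 out cannot turn the direction, so this is not a measure of stability. Of the 149 called genes named below, 103 stayed called without deficient tumor replicate 1, 128 without deficient tumor replicate 2, 106 without wild-type tumor replicate 1 and 92 without wild-type tumor replicate 2. In bulk tissue, fewer cells of a type and less RNA per cell cannot be told apart.

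**Figure D1:**
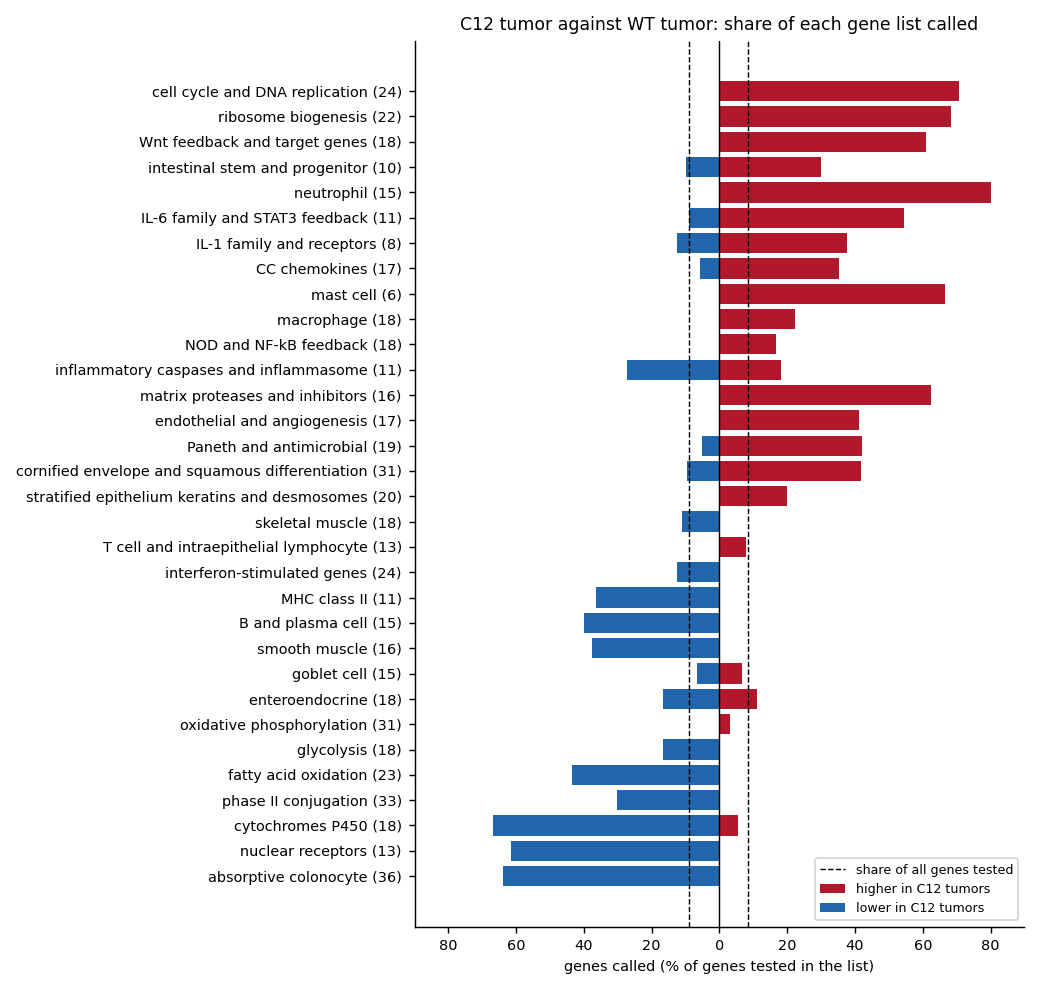
Share of the tested genes of each list, with the number tested in brackets, that were called higher (red, to the right) or lower (blue, to the left) in deficient than in wild-type tumors. The dashed lines mark the shares over all 9341 genes, 8.54% higher and 9.09% lower; neutrophil genes reach 80% to the right and cytochromes P450 66.7% to the left.

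The genes of the caspase-1 axis went in both directions in deficient tumors. Of 11 tested members of the inflammasome list, Il1b and Il1a were called higher, and Casp1, Il18 and Txnip lower, with a list median of −0.66. Leaving out 1 tumor array gave 1 or 2 called higher and between 0 and 2 lower. Il1b, the precursor of interleukin-1 beta, read 12.82 and 12.81 in deficient tumors, against 10.11 and 7.51 in wild-type tumors, a difference of 4.01 (SE 0.71, adjusted p = 0.0115). The levels of the deficient tumors were nearly equal, while the wild-type tumors lay far apart and still below both. Il1a, which encodes interleukin-1 alpha, read 8.76 and 7.48 in deficient tumors, against 6.76 and 5.11 in wild-type tumors (2.19, adjusted p = 0.0429). Il1r2, the decoy receptor for both cytokines, read 9.04 and 10.27 in deficient tumors, against 7.35 and 5.81 in wild-type tumors (3.07, adjusted p = 0.0264).

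Il18, an interleukin made by colon epithelium, went the other way. It read 10.44 and 10.64 in deficient tumors, against 11.80 and 12.49 in wild-type tumors, a difference of −1.61 (SE 0.41, adjusted p = 0.0345). In normal colon it was also lower, at 9.83 and 11.03 in deficient normal colon, against 12.82 and 12.69 in wild-type normal colon (−2.32, adjusted p = 0.0368). Casp1, which encodes caspase-1, read 13.12 and 13.26 in deficient tumors, against 14.24 and 14.23 in wild-type tumors (−1.05, SE 0.25, adjusted p = 0.0282), and in normal colon it differed by 0.05 (adjusted p = 0.956). Txnip, a thioredoxin inhibitor that has been linked to the NLRP3 sensor, read 12.38 and 12.74 in deficient tumors, against 13.71 and 13.83 in wild-type tumors (−1.21, adjusted p = 0.0157). Pycard, which encodes the adaptor ASC, read 7.61 and 9.10 in deficient tumors, against 9.59 and 9.97 in wild-type tumors and did not pass (−1.43, adjusted p = 0.0877). The calls of Casp1 and Il18 in tumors were lost when any 1 of the 4 tumor arrays was left out. The differences stayed negative, as they had to where the groups do not overlap. Nlrp3, with 2 probes, and the bacterial sensor Nod2, with 1 probe, were above background on none of the 8 arrays, and the kinase gene Ripk2 had no probe in the table.

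Casp12 itself read 6.97 and 5.96 in deficient tumors, against 5.73 and 5.88 in wild-type tumors, and in normal colon Casp12 read 6.50 and 7.21 in deficient mice, against 5.84 and 5.83 in wild-type mice. The deficient arrays were thus not lower, but the probe was above background on only 1 deficient tumor array and 1 deficient normal array, and the difference in tumors did not pass (0.66, SE 0.37, adjusted p = 0.256). The sources used here do not say where the probe lies relative to the altered stretch, so it does not check the labels.

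The 3 probes of Casp4, which encodes caspase-11, the receptor for intracellular lipopolysaccharide, disagreed in the size of the difference. Probe ILMN_2811737 read 4.87 and 5.03 in deficient tumors, against 11.52 and 11.16 in wild-type tumors. In normal colon it read 5.01 and 5.04 in deficient mice, against 10.99 and 11.77 in wild-type mice. It was thus above background on all 4 wild-type arrays and on none of the 4 deficient arrays, in either tissue. The difference was at least 29.9-fold in tumors (−6.39, SE 0.30, adjusted p = 2.1e-04) and at least 23.7-fold in normal colon (−6.35, SE 0.30, adjusted p = 1.64e-04), and the interaction was −0.04 (adjusted p = 0.977). The second probe, ILMN_2811746, was above background on all 8 arrays and read 6.72 and 6.80 in deficient tumors, against 7.92 and 7.70 in wild-type tumors (−1.05, adjusted p = 0.0304). The third probe, ILMN_1254655, read 9.77 and 9.27 in deficient tumors, against 10.71 and 10.50 in wild-type tumors (−1.08, adjusted p = 0.0599). This brightest probe stands for Casp4 in all counts by gene. The inflammasome list above and the genes called in both tissues therefore count Casp4 as not called. The labels give the same strain for both genotypes, and whether the Casp4 allele next to the altered locus differs in the deficient line was not tested.

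**Figure D2:**
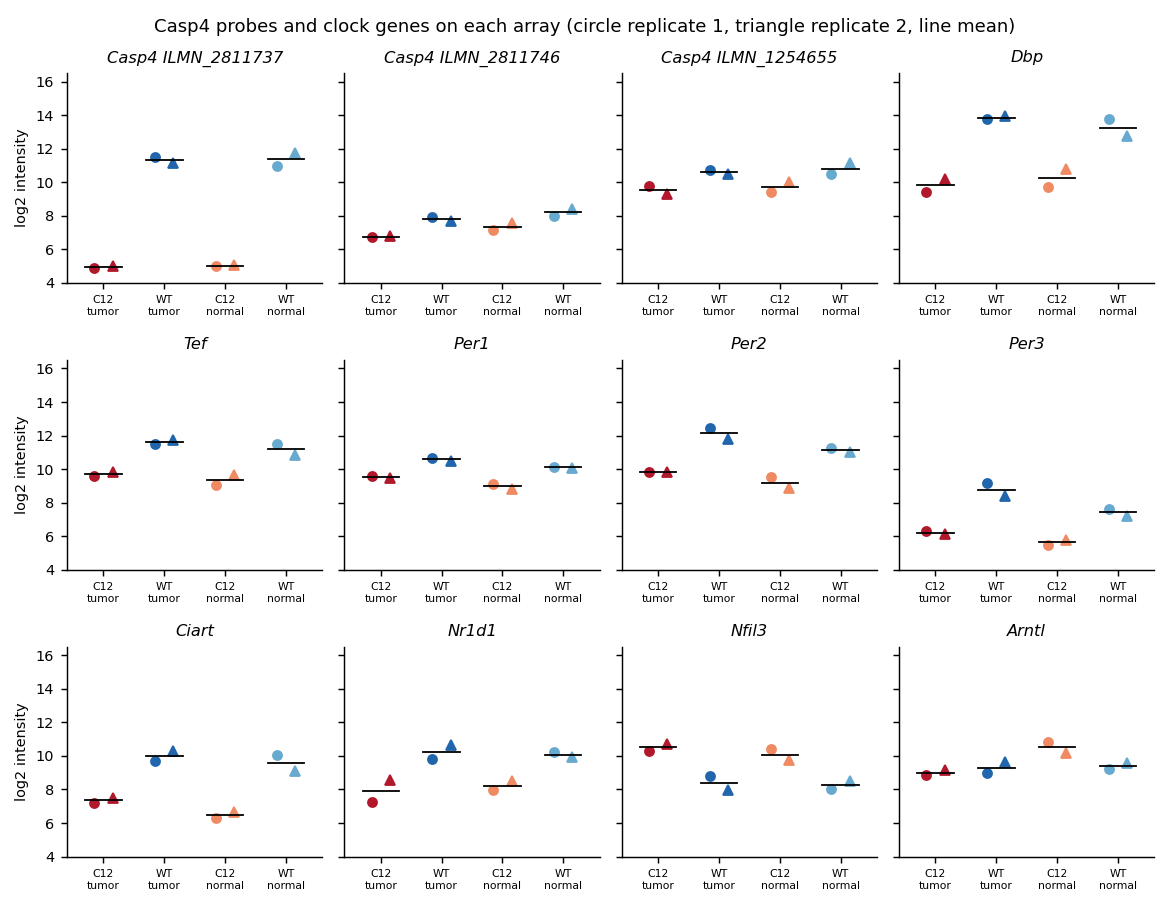
Log2 intensity of the 3 Casp4 probes and of 9 clock genes on each of the 8 arrays, with groups from left to right deficient tumor, wild-type tumor, deficient normal and wild-type normal. Probe ILMN_2811737 lies near 5 in every deficient array and between 10.99 and 11.77 in every wild-type array, and the clock outputs Dbp, Tef, Per1, Per2, Per3, Ciart and Nr1d1 are lower in deficient than in wild-type arrays of both tissues.

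Neutrophil transcripts were higher in the deficient tumors. Of 15 neutrophil genes tested, 12 were called higher and none lower, with a median difference of 3.36. S100a9, an inflammatory calcium-binding protein, read 14.20 and 14.86 in deficient tumors, against 9.80 and 7.42 in wild-type tumors (5.92, SE 0.77, adjusted p = 0.00511). Its partner S100a8 read 14.93 and 15.12 in deficient tumors, against 10.71 and 9.50 in wild-type tumors (4.92, SE 0.47, adjusted p = 0.00229). Both deficient tumors were far above all other arrays for these genes. Retnlg, a resistin-like protein of granulocytes, was at least 20.5-fold higher. Stfa1, a cysteine protease inhibitor of myeloid cells that is not in the list, was at least 19.1-fold higher. Hdc, the histamine-forming enzyme, read 13.90 and 12.08 in deficient tumors, against 8.66 and 7.14 in wild-type tumors (5.09, adjusted p = 0.00498). The gelatinase Mmp9 (3.81), the siderophore-binding Lcn2 (3.94) and the formyl peptide receptor Fpr2 (3.36) were also called. Ltf, a granule protein, did not pass (adjusted p = 0.217): it read 15.66 and 15.43 in deficient tumors, against 15.14 and 8.08 in wild-type tumors, so wild-type tumor replicate 1 was level with the deficient tumors. The summed linear intensity of the 15 genes, in kilounits of 1000, was 134 and 131 in deficient tumors, against 48.8 and 9.75 kilounits in wild-type tumors. Between 8 and 11 of the 15 were called higher when 1 tumor array was left out.

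Of 4 tested CXC chemokines that attract neutrophils 2, Cxcl1 and Cxcl2, were called higher, and without wild-type tumor replicate 1 all 4 were. Cxcl1 read 13.55 and 11.58 in deficient tumors, against 7.56 and 7.79 in wild-type tumors (4.89, SE 0.71, adjusted p = 0.00666). Cxcl2 was at least 6.84-fold higher (adjusted p = 0.00699). Cxcl5 read 12.82 and 13.10 in deficient tumors, against 11.85 and 8.00 in wild-type tumors and did not pass. Ppbp, at 12.43 and 14.10 in deficient tumors, against 13.97 and 5.03 in wild-type tumors, did not pass either, and its wild-type tumors differed more from each other than from the deficient ones. Of 17 CC chemokines 6 were called higher and 1 lower, among them the macrophage chemokine Ccl4, at 9.81 and 9.58 in deficient tumors, against 6.94 and 6.81 in wild-type tumors (2.82, adjusted p = 0.00343). Between 4 and 6 CC chemokines were called higher when 1 tumor array was left out.

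Of 11 genes of the IL-6 family and its STAT3 feedback, 6 were called higher and 1 lower (median 1.14), and all 6 also passed the interaction with tissue. Il11, an IL-6-type cytokine made by stroma, read 10.48 and 9.89 in deficient tumors, against 6.28 and 6.11 in wild-type tumors, which is at least 12.5-fold higher (adjusted p = 0.00124). Osm, which encodes oncostatin M, read 9.05 and 9.35 in deficient tumors, against 6.59 and 5.65 in wild-type tumors (3.08, adjusted p = 0.00328). Il6 itself was at least 1.94-fold higher. Socs3, the feedback inhibitor that STAT3 induces, read 12.42 and 12.27 in deficient tumors, against 10.38 and 10.04 in wild-type tumors (2.14, SE 0.31, adjusted p = 0.00681), and the kinase Pim1 was at least 1.5-fold higher. Of 18 NOD and NF-kB feedback genes only Tnfaip2 (1.91), the adhesion molecule Icam1 (1.89) and the subunit gene Rel (0.92) were called, a share of 16.7%, and Tnf did not pass (adjusted p = 0.0846). Among 6 mast cell genes 4 were called higher, including the chymase Mcpt4 (at least 1.04-fold) and the carboxypeptidase Cpa3 (1.50), with Hdc counted in this list too. Of 18 macrophage genes 4 were called higher (22.2%), including the Fc receptor subunits Fcer1g (1.48) and Fcgr3 (1.03). With 1 tumor array left out, between 2 and 4 mast cell genes and 1 or 2 macrophage genes were called. Arg1, which encodes arginase 1, did not pass, at 12.90 and 14.93 in deficient tumors, against 14.07 and 6.32 in wild-type tumors.

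**Figure D3:**
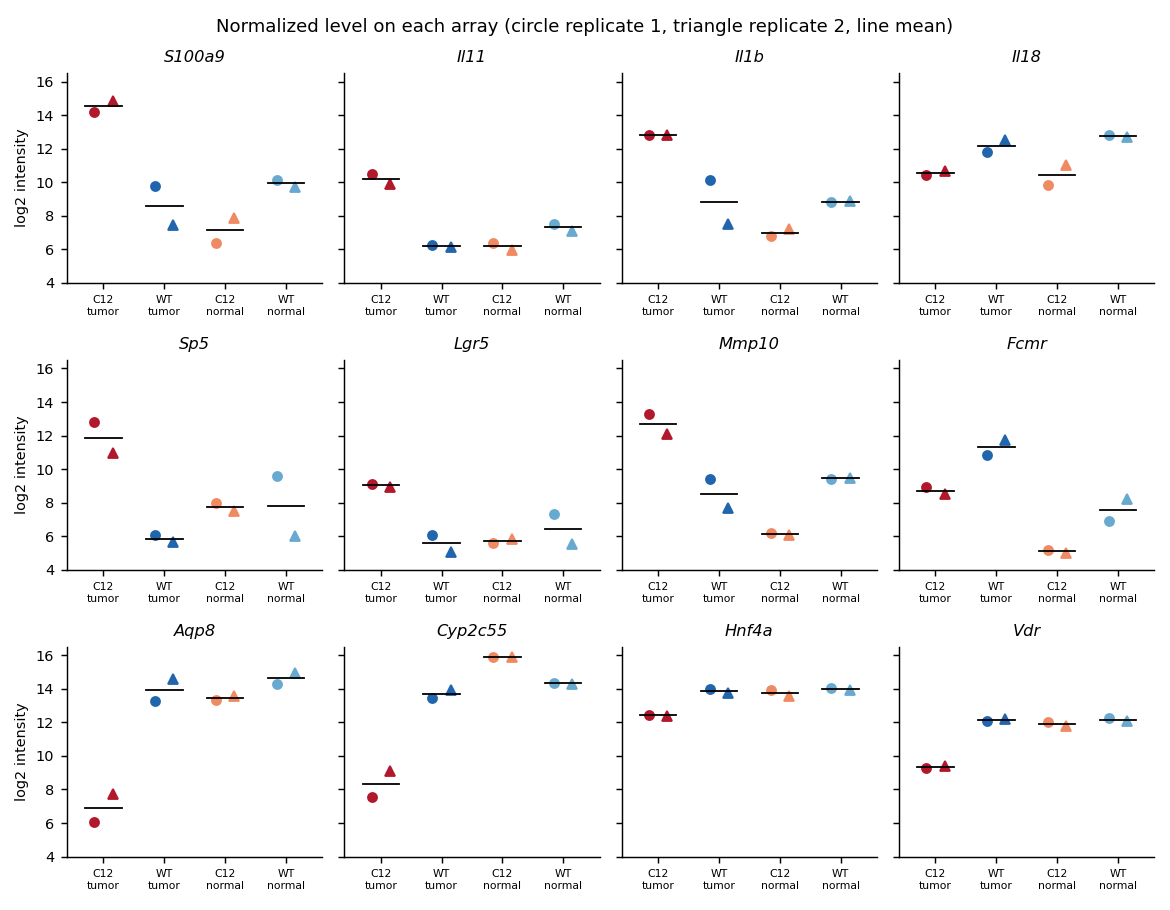
Log2 intensity of 12 genes on each array, with groups from left to right deficient tumor, wild-type tumor, deficient normal and wild-type normal. S100a9, Il11, Il1b, Sp5, Lgr5 and Mmp10 are highest in both deficient tumors, and Aqp8, Cyp2c55, Hnf4a and Vdr lowest there, while Il18 is lower in deficient arrays of both tissues.

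Genes of B cells were lower in the deficient tumors. Of 15 tested, 6 were called lower and none higher (median −1.46), and all 15 differences were negative. Fcmr, a receptor for immunoglobulin M, read 8.91 and 8.52 in deficient tumors, against 10.85 and 11.74 in wild-type tumors (−2.58, SE 0.46, adjusted p = 0.0124). The follicle homing receptor Cxcr5 read 6.55 and 5.96 in deficient tumors, against 8.36 and 8.83 in wild-type tumors (−2.34, adjusted p = 0.00699), and the kinase Blk 6.82 and 6.38 in deficient tumors, against 8.53 and 8.77 in wild-type tumors (−2.05). The receptor subunit Cd79b differed by −1.57 (adjusted p = 0.037). Fcmr was low in deficient normal colon too, at 5.19 and 5.01 in deficient normal colon, against 6.91 and 8.21 in wild-type normal colon. For Fcmr, Cxcr5, Blk and Cd79b both wild-type tumors were above every other array. All 11 differences of the MHC class II genes were negative, and the 4 called were H2-DMb2, at least 3.56-fold, H2-Ob, at least 3.58-fold, H2-Oa, at least 3.34-fold, and H2-Eb2, at least 2.89-fold. H2-Oa and H2-Ob encode the antigen-loading modulator that B cells make. Of the B cell genes 3 were called without 1 or the other deficient tumor, 6 without wild-type tumor replicate 1 and 1 without replicate 2, and of the class II genes between 2 and 4.

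The share of T cell genes called was near that of all genes, at 7.69% higher against 8.54%, with none lower against 9.09%. It is not read as a result about T cells. Only Prf1, the perforin gene of cytotoxic cells, was called among 13, at 12.40 and 12.15 in deficient tumors, against 10.47 and 10.85 in wild-type tumors (1.61, adjusted p = 0.025). Of 24 interferon-stimulated genes 3 were called lower, the RNA sensor Ifih1 (−1.73), Oasl1 (−1.39) and the peptide-loading chaperone Tapbp (−1.60). This share of 12.5%, against 9.09% of all genes, is not read as a result about the group either. Both tested interferon-induced CXC chemokines were called higher, Cxcl9 at 10.20 and 10.65 in deficient tumors, against 7.45 and 7.87 in wild-type tumors (2.77, adjusted p = 0.0301) and Cxcl10 at 7.51 and 8.38 in deficient tumors, against 6.52 and 6.46 in wild-type tumors (1.46, adjusted p = 0.042). These counts changed with the arrays used. Of the interferon-induced CXC chemokines 1 was called without deficient tumor replicate 1 and none without any of the other three, no T cell gene was called without either wild-type tumor in turn, and between 1 and 4 interferon-stimulated genes were called lower.

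Wnt target genes were higher in the deficient tumors. Of 18 tested, 11 were called higher and none lower, with a median difference of 2.58. Sp5, a transcription factor that Wnt signalling induces directly, read 12.80 and 10.94 in deficient tumors, against 6.07 and 5.64 in wild-type tumors, which is at least 40.1-fold (log2 6.01, SE 1.08, adjusted p = 0.0123). Notum, a secreted esterase that switches Wnt ligands off, read 12.31 and 10.37 in deficient tumors, against 6.50 and 5.75 in wild-type tumors (5.22, SE 1.13, adjusted p = 0.0213). Axin2, the feedback scaffold of the pathway, read 13.12 and 11.01 in deficient tumors, against 8.81 and 8.31 in wild-type tumors (3.50, adjusted p = 0.0163), and the Wnt-binding inhibitor Wif1 12.96 and 11.43 in deficient tumors, against 8.85 and 7.36 in wild-type tumors (4.09). In all of these deficient tumor replicate 1 was above replicate 2, and both wild-type tumors were below both. The stem cell receptor Lgr5 was at least 5.6-fold higher, the crypt-base factor Ascl2 at least 2.5-fold and the RNA-binding Mex3a at least 4.44-fold. Wild-type normal replicate 1 also read high, at 9.61 for Sp5 and 8.98 for Notum, against 5.99 and 5.20 in wild-type normal replicate 2. Without wild-type tumor replicate 2 only 1 Wnt gene was called, although the median difference was still 2.01. The count was 5 without deficient tumor replicate 1, 7 without wild-type tumor replicate 1 and 13 without deficient tumor replicate 2.

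The promoter of Sp5 is printed because this gene showed the largest Wnt-linked difference. It covers 250 bases before to 50 after the RefSeq start, as chr2:70474673-70474972 on the plus strand of GRCm38.p6. Capitals mark the core of the TCF motif, CTTTGA, or its other strand, TCAAAG. It held 2 copies, and 16% of all 32851 mouse promoters of this length held at least 1. Of 11 tested Wnt genes with a promoter sequence 2 held the letters (18.2%), against 14.6% of all tested genes with one, and a match is a description of these bases only.
Sp5: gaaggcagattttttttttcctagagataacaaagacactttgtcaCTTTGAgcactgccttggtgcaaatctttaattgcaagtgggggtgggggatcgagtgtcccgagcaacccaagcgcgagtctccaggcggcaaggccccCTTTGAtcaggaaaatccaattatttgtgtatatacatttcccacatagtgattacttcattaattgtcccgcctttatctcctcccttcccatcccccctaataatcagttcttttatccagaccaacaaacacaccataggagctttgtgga

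Proliferation and growth genes were higher in the deficient tumors, with smaller differences than the Wnt genes. Of 24 cell cycle genes 17 were called higher and none lower (median 1.26), and all 24 differences were positive. Their median level was 10.31 and 10.25 in deficient tumors, against 8.81 and 8.96 in wild-type tumors. In normal colon the median level was 9.92 and 9.58 in deficient mice, against 8.80 and 9.54 in wild-type mice (median difference 0.48). Deficient normal colon thus also read above both wild-type tumors. No cell cycle gene was called in normal colon, and only 1 passed the interaction with tissue. Mcm2, part of the replicative helicase, read 10.57 and 10.04 in deficient tumors, against 8.29 and 8.34 in wild-type tumors (1.99, SE 0.25, adjusted p = 0.00457). The transcription factor E2f1 (1.91), the topoisomerase Top2a (1.65), the survivin gene Birc5 (1.79) and the nucleotide reductase subunit Rrm2 (1.60) were called likewise. Of 22 ribosome biogenesis genes 15 were called higher (median 0.99). In normal colon their median difference was 0.10, and none passed the interaction. Without any 1 tumor array between 5 and 11 of the cell cycle genes and between 4 and 8 of the ribosome biogenesis genes were called, while the medians stayed between 1.20 and 1.31 and between 0.99 and 1.05.

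Matrix-degrading enzymes were higher as a group. Of 16 matrix proteases and inhibitors tested 10 were called higher and none lower, with a median of 1.71. Mmp10, a stromelysin, read 13.26 and 12.09 in deficient tumors, against 9.39 and 7.67 in wild-type tumors (4.14, SE 0.57, adjusted p = 0.00573). In normal colon Mmp10 was at least 6.17-fold lower in deficient mice, at 6.18 and 6.04 in deficient normal colon, against 9.39 and 9.49 in wild-type normal colon (adjusted p = 0.0325). Mmp13, a collagenase, read 13.66 and 12.54 in deficient tumors, against 10.34 and 9.21 in wild-type tumors (3.33, adjusted p = 0.00826). Mmp7, matrilysin of tumor and Paneth cells, was at least 27-fold higher, the macrophage elastase Mmp12 at least 5.75-fold and the aggrecanase Adamts4 at least 3.54-fold. Mmp7, Mmp10, Mmp12 and Mmp13 lie with Casp12 on chromosome 9, and 5 of 12 tested neighbours of Casp12 were called higher and 1 lower; the group of matrix genes and the neighbours thus share members. Of 17 endothelial genes 7 were called higher (41.2%), such as the vessel-remodelling ligand Angpt2, at 11.58 and 10.92 in deficient tumors, against 8.92 and 8.66 in wild-type tumors (2.46, adjusted p = 0.00417), and VE-cadherin, Cdh5, at least 1.41-fold. The basement membrane collagens Col4a1 (1.46) and Col18a1 (1.50) were the 2 of 15 collagens called higher, and 1 was lower. Of 21 fibroblast genes 3 were called higher, among them the activin subunit Inhba (2.07) and thrombospondin 2, Thbs2 (1.80). With 1 tumor array left out, between 7 and 9 of the matrix protease genes, between 2 and 4 of the endothelial genes and between 3 and 5 of the neighbours of Casp12 were called higher. Without wild-type tumor replicate 2 no collagen or fibroblast gene was called higher, and without deficient tumor replicate 2 there were 6 fibroblast genes called lower.

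The surface program of the absorptive colonocyte was lower in the deficient tumors. Of 36 genes tested 23 were called lower and none higher, with a median difference of −2.18. In deficient normal colon 5 of the 36 were called lower and 4 higher, with a median of −0.33. For 9 of the 36 the interaction with tissue passed with a negative sign and for 1 with a positive sign. The tumor difference of the others was thus not shown to differ from that in normal colon. Aqp8, the water channel of the colonocyte surface, read 6.07 and 7.76 in deficient tumors, against 13.25 and 14.59 in wild-type tumors (−7.01, SE 0.62, adjusted p = 0.00178). Car4, a membrane carbonic anhydrase, read 5.86 and 9.88 in deficient tumors, against 14.56 and 15.42 in wild-type tumors (−7.12, SE 1.09, adjusted p = 0.00779). For both genes deficient tumor replicate 1 was lower than replicate 2, and both were far below the 6 other arrays. Slc13a2, a dicarboxylate transporter, read 6.07 and 9.11 in deficient tumors, against 12.18 and 12.93 in wild-type tumors (−4.97), and Slc5a8, which takes up butyrate, 7.80 and 11.39 in deficient tumors, against 14.41 and 13.95 in wild-type tumors (−4.59). The brush border protease Mep1a differed by −4.53 (adjusted p = 0.0011) and the peroxisomal oxidase Hao2 by −5.18. Outside the list, the methanethiol oxidase Selenbp1 differed by −4.88 and the glucocorticoid-inactivating Hsd11b2 by −4.60. Gsdmc3, a gasdermin of the colon surface, read 5.43 and 8.04 in deficient tumors, against 11.35 and 11.35 in wild-type tumors (−4.62, adjusted p = 0.00866). Between 15 and 21 of the 36 colonocyte genes were called lower when 1 tumor array was left out. Syncollin, Sycn, a secretory granule protein counted with exocrine pancreas, read 6.02 and 11.83 in deficient tumors, against 14.63 and 15.58 in wild-type tumors (−6.18, SE 1.56, adjusted p = 0.0331).

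Drug and lipid metabolism genes were lower in parallel. Of 18 cytochromes P450 tested, 12 were called lower and 1 higher (median −2.06). Cyp2c55 read 7.58 and 9.12 in deficient tumors, against 13.48 and 13.96 in wild-type tumors (−5.37, SE 0.46, adjusted p = 0.00157), and Cyp2s1 8.14 and 8.47 in deficient tumors, against 12.13 and 12.11 in wild-type tumors (−3.82, adjusted p = 0.0011). Cyp2d9 (−5.56) and, outside the list, Cyp2d12 (−5.93) and Cyp2c67 (−5.05) were among the 15 largest falls of all genes. Cyp2d12 and Cyp2c67 were also called lower in deficient normal colon, with fitted differences of −4.32 (adjusted p = 0.0120) and −4.22 (adjusted p = 0.0387). Neither passed the interaction with tissue (adjusted p = 0.297 and 0.707). Of the 18 listed P450 genes 3 were called higher in deficient normal colon and none lower. Cyp1b1, which oxidizes estrogens and polycyclic hydrocarbons, was the one P450 called higher, at least 2.78-fold, and it was also higher in deficient normal colon (at least 1.21-fold, adjusted p = 0.0304). Of 33 phase II conjugation genes 10 were called lower and none higher, led by the sulfotransferases Sult1d1 (−4.76), Sult1c2 (−4.35) and Sult1a1 (−3.81). Of 23 fatty acid oxidation genes 10 were called lower and none higher (median −0.66). The peroxisomal enzyme Ehhadh was at least 4.2-fold lower, and the thiolase Acaa2 read 8.73 and 9.17 in deficient tumors, against 11.07 and 11.35 in wild-type tumors (−2.26, adjusted p = 0.00444). The carnitine carrier Slc25a20 differed by −1.94. By contrast, of 31 oxidative phosphorylation genes 1 was called higher and none lower (median −0.10), and of 18 glycolysis genes 3 were called lower. With 1 tumor array left out, between 6 and 12 of the P450 genes, 3 and 14 of the conjugation genes and 5 and 8 of the fatty acid oxidation genes were called lower, the fewest P450 and conjugation genes without wild-type tumor replicate 2, where 5 oxidative phosphorylation genes were called higher.

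Genes of nuclear receptors, transcription factors that sense lipids and hormones, were lower too. Of 13 nuclear receptor genes tested 8 were called lower and none higher, and all 13 differences were negative (median −1.36); 2 of the 8, Nr1d1 and Nr1d2, are clock genes. Vdr, the vitamin D receptor, read 9.28 and 9.42 in deficient tumors, against 12.09 and 12.21 in wild-type tumors (−2.80, SE 0.22, adjusted p = 0.00136). Hnf4a, a master regulator of gut epithelial genes, read 12.46 and 12.37 in deficient tumors, against 13.97 and 13.75 in wild-type tumors (−1.45, SE 0.23, adjusted p = 0.00841). The pregnane X receptor Nr1i2 read 8.08 and 8.32 in deficient tumors, against 10.18 and 10.28 in wild-type tumors (−2.03), the bile acid receptor Nr1h4 differed by −1.87, and Nr5a2 was at least 2.72-fold lower. For Vdr, Hnf4a and Nr1i2 the wild-type tumors were level with the 4 normal arrays, which for Vdr read 12.01 and 11.77 in deficient normal colon, against 12.26 and 12.06 in wild-type normal colon. Vdr, Nr5a2 and Nr1i2 also passed the interaction with tissue (adjusted p = 0.0106, 0.0154 and 0.0224). The intestinal homeobox gene Cdx1 (−1.90), the surface keratin Krt20 (−1.75) and villin, Vil1 (−1.10), were among the 5 of 13 simple epithelium genes called lower. When 1 tumor array was left out, between 5 and 8 nuclear receptor genes were called lower. For the simple epithelium genes this count was 1 without deficient tumor replicate 1, 3 without replicate 2 and 0 without either wild-type tumor in turn.

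Of 15 goblet cell genes 1 was called higher and 1 lower (median −0.82): the ribonuclease Ang4, at 12.53 and 10.83 in deficient tumors, against 5.41 and 8.38 in wild-type tumors (4.79, adjusted p = 0.0179), and the mucus protein Clca1, at 12.04 and 10.96 in deficient tumors, against 14.60 and 15.11 in wild-type tumors (−3.35, adjusted p = 0.00416). Of 18 enteroendocrine genes 2 were called higher and 3 lower. The 3 lower ones were Chga, at least 3.09-fold, Chgb (−3.44) and the serotonin-forming Tph1, at least 1.51-fold. Without deficient tumor replicate 2, however, 6 goblet and 9 enteroendocrine genes were called lower, with medians of −1.40 and −1.53; with any other tumor array left out 1 or 2 of each were. Paneth cell and antimicrobial genes were higher, with 8 of 19 called higher and 1 lower (median 2.06). Defa20, an alpha-defensin, read 15.12 and 11.60 in deficient tumors, against 5.20 and 7.45 in wild-type tumors (7.04, SE 1.59, adjusted p = 0.0239). Itln1, a lectin that binds microbial sugars, read 13.19 and 11.04 in deficient tumors, against 6.81 and 6.80 in wild-type tumors (5.31, adjusted p = 0.0178). The defensin Defa26, outside the list, was at least 19.2-fold higher. Wild-type normal replicate 1 also read 11.84 for Defa20 and 10.08 for Itln1, against 7.88 and 6.75 in wild-type normal replicate 2, so the 2 arrays of wild-type normal colon also lay far apart. Between 2 and 8 Paneth and antimicrobial genes were called higher when 1 tumor array was left out, the 2 without wild-type tumor replicate 1. Saa3, an acute phase protein, read 13.75 and 13.28 in deficient tumors, against 9.24 and 8.85 in wild-type tumors (4.47, SE 0.58, adjusted p = 0.00511), and the bactericidal lectin Reg3g 10.68 and 10.55 in deficient tumors, against 5.22 and 7.68 in wild-type tumors (4.16).

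Genes of stratified squamous epithelium, which is not part of the colon lining, were uneven between the arrays. Of the cornified envelope list 13 of 31 were called higher and 3 lower (median 3.82), and of the keratin and desmosome list 4 of 20 higher (median 2.52). Lor, loricrin of the cornified envelope, showed the largest rise of any gene named here, at 13.87 and 14.34 in deficient tumors, against 7.29 and 6.82 in wild-type tumors (7.05, SE 0.31, adjusted p = 0.00021). Both wild-type tumors, at the levels just given, lay close to deficient normal colon, at 7.19 and 6.79. Calm4, a calmodulin of differentiating skin, read 11.77 and 12.60 in deficient tumors, against 7.74 and 4.86 in wild-type tumors (5.88, adjusted p = 0.00556), Krtdap 12.47 and 14.53 in deficient tumors, against 9.67 and 5.62 in wild-type tumors (5.85) and Rptn 10.69 and 13.80 in deficient tumors, against 7.93 and 5.71 in wild-type tumors (5.42). The suprabasal keratin Krt1 was at least 3.69-fold higher. Other genes of stratified epithelium did not pass, and for the 3 given next wild-type tumor replicate 1 lay between the deficient tumors. Trp63, the master factor of stratified epithelium, read 10.36 and 12.60 in deficient tumors, against 11.77 and 4.84 in wild-type tumors (adjusted p = 0.277), the mucosal keratin Krt13 12.62 and 15.11 in deficient tumors, against 13.54 and 4.98 in wild-type tumors (adjusted p = 0.218) and the basal keratin Krt15 12.11 and 10.57 in deficient tumors, against 10.65 and 6.00 in wild-type tumors (adjusted p = 0.145). The summed linear intensity of the keratin list was 96.8 and 185 kilounits in deficient tumors, against 121 and 11.6 kilounits in wild-type tumors. Without wild-type tumor replicate 1 the keratin list had 13 of 20 called higher, and without wild-type tumor replicate 2 it had 3, with a median of 0.43. The cornified list had between 6 and 19 called higher, the 6 without wild-type tumor replicate 2 and the 19 without deficient tumor replicate 1.

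**Figure D4:**
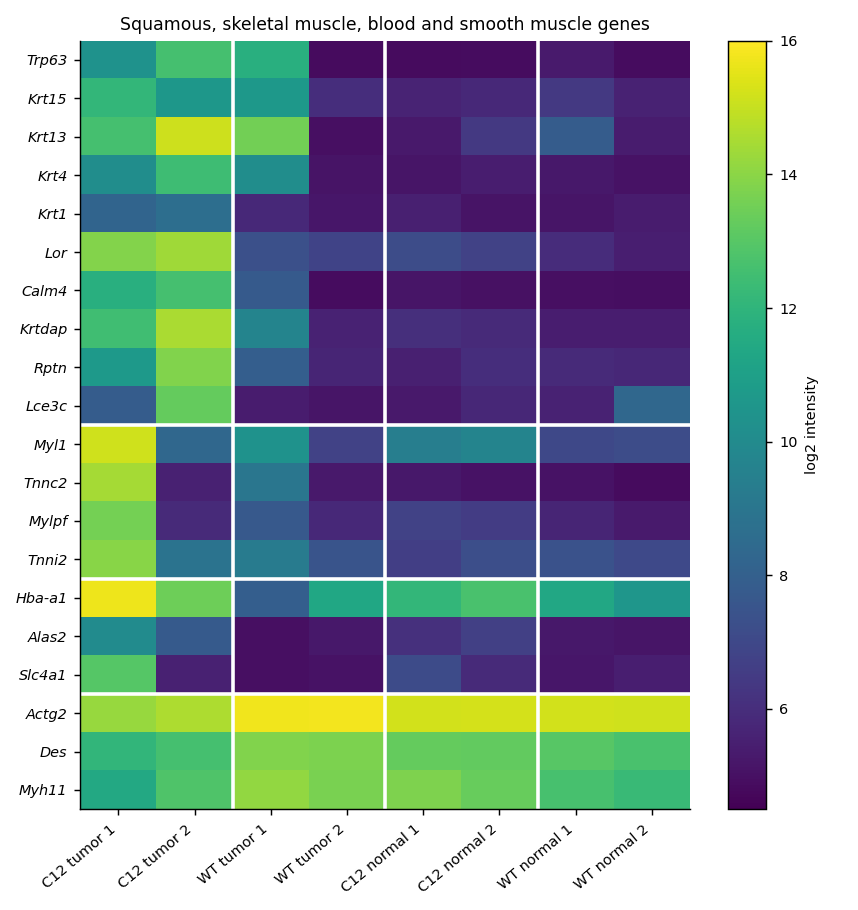
Log2 intensity (colour) of squamous, skeletal muscle, red cell and smooth muscle genes, from top to bottom, on the 8 arrays in columns. Wild-type tumor replicate 1 shares Trp63, Krt15, Krt13 and Krt4 with both deficient tumors and lacks Lor, the skeletal muscle genes stand out in deficient tumor replicate 1, and Hba-a1 is higher in both deficient tumors than in both wild-type tumors.

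Muscle and blood transcripts differed between arrays of the same group. Of 18 skeletal muscle genes none was called higher and 2 lower, with a median of 1.76 that was −1.45 without deficient tumor replicate 1 and 5.29 without replicate 2. Their summed linear intensity was 207 and 8.52 kilounits in deficient tumors, against 29.5 and 25.9 kilounits in wild-type tumors. Tnnc2, fast troponin C, read 14.44 and 5.56 in deficient tumors, against 9.0 and 5.28 in wild-type tumors (adjusted p = 0.452). Of 5 blood and platelet genes 2 were called higher, Hba-a1, at 15.69 and 13.46 in deficient tumors, against 7.92 and 11.36 in wild-type tumors (4.94, adjusted p = 0.0233), and Alas2, at least 5.11-fold, with between 1 and 4 called when 1 tumor array was left out. Their summed linear intensity was 73.3 and 31.1 kilounits in deficient tumors, against 16.9 and 4.59 kilounits in wild-type tumors. The sum includes Ppbp, given above as a chemokine, and does not measure red cells alone. Ppbp made up most of the sum in wild-type tumor replicate 1, where Hba-a1 was lower than in wild-type tumor replicate 2. Of 16 smooth muscle genes 6 were called lower (median −1.30), among them Actg2, at 14.23 and 14.60 in deficient tumors, against 15.75 and 15.82 in wild-type tumors (−1.37, adjusted p = 0.00844), and desmin, Des (−1.41). All 16 differences were negative, with between 1 and 11 called when 1 tumor array was left out, the 1 without deficient tumor replicate 1 and the 11 without replicate 2. Their summed linear intensity was 87.9 and 147 kilounits in deficient tumors, against 231 and 224 kilounits in wild-type tumors. The part that squamous, muscle or blood content plays in the differences of epithelial and immune genes was not tested.

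Caspase-12 was first known as a caspase of the endoplasmic reticulum, so genes of protein folding stress were looked at too. Of 22 tested, 2 were called higher and 3 lower, which is close to the shares of all genes. Chac1, a target of the stress response, read 8.58 and 9.80 in deficient tumors, against 7.06 and 6.86 in wild-type tumors (2.23, adjusted p = 0.0298), and the chaperone Hyou1 was at least 1.37-fold higher. Edem1, which sends misfolded proteins to degradation, read 6.49 and 6.85 in deficient tumors, against 8.66 and 8.74 in wild-type tumors (−2.03, adjusted p = 0.00409), and the co-chaperone Dnajb9 (−1.12) and the oxidase Ero1b (−1.41) were lower as well. Hspa5, the main chaperone of the compartment, read 8.75 and 8.98 in deficient tumors, against 9.16 and 8.83 in wild-type tumors and did not pass (−0.13, adjusted p = 0.788). Of 13 apoptotic caspases and regulators 2 were called lower, the survival factor Mcl1 (−1.08) and Casp14. When 1 tumor array was left out, 0 or 1 of the folding genes were called higher and between 1 and 3 lower, and 0 or 1 of the apoptotic genes lower.

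Smaller groups of epithelial genes held single members that differed. Over all genes 8.54% were called higher and 9.09% lower. These shares were 0% and 16.7% for prostaglandin genes, 7.69% and 23.1% for tight junction genes. They were 33.3% and 0% for regenerating epithelium, and 16.7% and 8.33% for BMP pathway genes. With 12 to 15 genes a list, these counts are not read as results about the groups. Hpgd, which breaks prostaglandins down, read 10.79 and 11.31 in deficient tumors, against 12.99 and 12.76 in wild-type tumors (−1.83, adjusted p = 0.00931), and the prostaglandin carrier Slco2a1 9.33 and 9.55 in deficient tumors, against 11.12 and 11.41 in wild-type tumors (−1.82); they were the 2 called of 12 prostaglandin genes. Of 13 tight junction genes, Cldn4 was called higher (2.51) and Cldn15 (−2.10), Cldn8 (at least 2.11-fold) and the occludin gene Ocln (−1.53) lower. Of 15 genes of regenerating epithelium 5 were called higher, among them Yap1, a growth regulator that lies near Casp12 on chromosome 9, at 10.15 and 9.94 in deficient tumors, against 8.76 and 8.98 in wild-type tumors (1.17, adjusted p = 0.0129), and the urokinase receptor Plaur (1.60). Of 12 BMP pathway genes 2 were called higher and 1 lower, with the ligand Bmp7 higher (2.60) and the inhibitor of differentiation Id4 lower (−2.90, adjusted p = 0.00866). With 1 tumor array left out, between 3 and 4 genes of regenerating epithelium were called higher, between 1 and 3 tight junction genes lower, between 2 and 3 prostaglandin genes lower and between 1 and 3 BMP pathway genes lower.

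Some genes differed between the genotypes in both tissues. Of the 1647 genes called in tumors and the 215 called in normal colon, 86 were called in both, which is 5.22% of the first set and 40% of the second. Over all 9341 genes 2.3% were called in normal colon and 17.6% in tumors. The 2 comparisons share no array, but share one fit. The normal colon calls were fewer by more than 1.5 times when 1 normal array was left out, between 38 and 88 of the 292 probes called with all 8 arrays. Of the 86, 70 went the same way, 55 lower and 15 higher in deficient mice, and 16 went opposite ways. Tgm3, a transglutaminase, was at least 31.3-fold lower in deficient tumors, at 5.24 and 5.76 in deficient tumors, against 10.74 and 12.07 in wild-type tumors, and in normal colon Tgm3 read 5.11 and 4.86 in deficient mice, against 12.04 and 11 in wild-type mice, at least 26.1-fold (adjusted p = 0.00166). Mptx1, a pentraxin of the intestine, read 7.46 and 8.17 in deficient tumors, against 11.60 and 12.56 in wild-type tumors (−4.26), and in normal colon Mptx1 read 6.05 and 5.90 in deficient mice, against 12.96 and 9.84 in wild-type mice, at least 24.1-fold. Hoxa13, the most posterior Hox gene of its cluster, read 7.03 and 7.60 in deficient tumors, against 9.17 and 8.59 in wild-type tumors (−1.56), and in normal colon Hoxa13 read 6.15 and 6.53 in deficient mice, against 8.98 and 8.76 in wild-type mice, at least 4.15-fold. Casp14, a caspase of cornifying skin, differed by −2.01 in tumors and was at least 4.23-fold lower in normal colon. On the higher side, the cyclic GMP-dependent kinase Prkg2 read 11.36 and 10.09 in deficient tumors, against 7.06 and 6.38 in wild-type tumors (4.01, adjusted p = 0.00398), and in normal colon Prkg2 read 11.13 and 11.29 in deficient mice, against 8.59 and 8.00 in wild-type mice (2.91, adjusted p = 0.0218). The gut peptide neurotensin, Nts, was higher by 3.65 log2 units in normal colon and at least 2.83-fold in tumors.

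**Figure D5:**
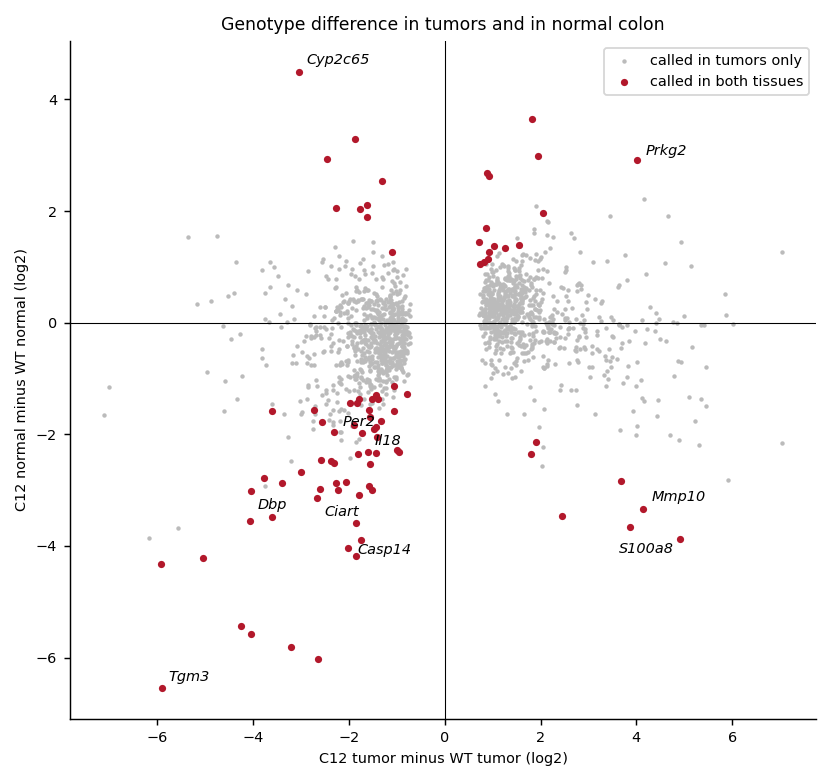
Genotype difference of each gene called in tumors, with the tumor difference on the horizontal and the normal colon difference on the vertical axis (log2, deficient minus wild type). The 86 genes called in both tissues (red) lie mostly in the lower left, where 55 of them were lower in deficient mice in both tissues, and 16 lie in the upper left or lower right.

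Many genes of the daily clock were lower in deficient mice in both tissues. This list was gathered after its values had been seen. Of 14 tested, 8 were called lower and 1 higher in deficient tumors (median −1.21), and 6 were called lower in deficient normal colon (median −1.0). Dbp, a transcription factor whose level swings with the daily clock, read 9.39 and 10.22 in deficient tumors, against 13.79 and 13.92 in wild-type tumors (−4.05, SE 0.48, adjusted p = 0.00416). In normal colon it read 9.71 and 10.77 in deficient mice, against 13.77 and 12.75 in wild-type mice (−3.02, adjusted p = 0.0248). Its relative Tef read 9.60 and 9.85 in deficient tumors, against 11.52 and 11.71 in wild-type tumors (−1.89, adjusted p = 0.00887), and in normal colon Tef read 9.06 and 9.62 in deficient mice, against 11.49 and 10.86 in wild-type mice (−1.84). The repressor gene Ciart read 7.18 and 7.52 in deficient tumors, against 9.69 and 10.32 in wild-type tumors (−2.66), and in normal colon Ciart read 6.27 and 6.63 in deficient mice, against 10.08 and 9.10 in wild-type mice, at least 6.86-fold. The period genes were lower in both tissues. Per1 differed by −1.06 in tumors and −1.13 in normal colon, Per2 by −2.32 and −1.95, and Per3 was at least 5.02-fold lower in tumors and at least 1.51-fold lower in normal colon. Nr1d1, which encodes the repressor REV-ERB alpha, read 7.23 and 8.56 in deficient tumors, against 9.83 and 10.63 in wild-type tumors (−2.34, adjusted p = 0.0173). In normal colon it differed by −1.84 and did not pass (adjusted p = 0.103). Nfil3, which opposes Dbp at the same sites, was the one called higher, at 10.32 and 10.74 in deficient tumors, against 8.80 and 7.98 in wild-type tumors (2.14, adjusted p = 0.011). None of the clock genes tested passed the interaction with tissue. The core activator Arntl (BMAL1) differed by −0.30 (adjusted p = 0.545) in tumors and by 1.10 (adjusted p = 0.135) in normal colon, and Clock by 0.38 (adjusted p = 0.374) in tumors. The sources used here do not give the time of day at which tissues were taken, and its part in these differences was not tested. With 1 tumor array left out, between 5 and 7 of the 14 were called lower in tumors.

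Clock factors act through known short motifs. The promoters printed are those of the 4 clock genes, all called lower in tumors, with a window that held such a motif. Dbp, Nr1d1 and Nr1d2 were called lower too and held none, and Per2, also called lower, had no promoter sequence. Capitals mark the E-box CACGTG, which reads the same on both strands, and the D-box TTATGTAA or its other strand TTACATAA. The E-box was in 7.15% and the D-box in 0.938% of all 32851 mouse promoters of 300 bases in RefSeq (GRCm38.p6). By gene, 11.7% of the 7578 genes tested here with a promoter sequence held the E-box and 0.752% the D-box. Of 12 tested clock genes with a promoter sequence 3 held an E-box and 1 a D-box, and for the others no match says only that these letters are not in this window. Ciart is at chr3:95882179-95882478 on the minus strand and held 3 E-boxes. Per1 at chr11:69098699-69098998 on the plus strand and Tef at chr15:81802423-81802722 on the plus strand held 1 each. Per3 at chr4:151044616-151044915 on the minus strand held 2 D-boxes. Tef had a second window, at chr15:81811164-81811463, that also held 1 E-box and is not printed. A second window of Per1 held none.
Ciart: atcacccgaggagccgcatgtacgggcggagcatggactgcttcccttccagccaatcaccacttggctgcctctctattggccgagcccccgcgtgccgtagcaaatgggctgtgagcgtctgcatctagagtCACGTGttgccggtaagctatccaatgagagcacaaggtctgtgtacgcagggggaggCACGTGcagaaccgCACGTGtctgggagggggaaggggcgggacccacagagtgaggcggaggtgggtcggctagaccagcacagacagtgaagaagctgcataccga
Per1: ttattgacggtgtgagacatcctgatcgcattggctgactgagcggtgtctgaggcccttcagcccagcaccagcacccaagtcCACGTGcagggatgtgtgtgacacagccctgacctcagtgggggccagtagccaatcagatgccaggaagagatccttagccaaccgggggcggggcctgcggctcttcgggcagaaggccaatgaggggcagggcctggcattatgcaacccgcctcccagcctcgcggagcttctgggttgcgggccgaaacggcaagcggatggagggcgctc
Tef: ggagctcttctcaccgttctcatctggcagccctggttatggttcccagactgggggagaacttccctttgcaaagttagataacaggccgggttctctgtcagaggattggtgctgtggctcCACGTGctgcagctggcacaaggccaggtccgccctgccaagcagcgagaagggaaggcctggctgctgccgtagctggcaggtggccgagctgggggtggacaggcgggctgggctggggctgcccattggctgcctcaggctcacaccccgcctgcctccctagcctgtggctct
Per3: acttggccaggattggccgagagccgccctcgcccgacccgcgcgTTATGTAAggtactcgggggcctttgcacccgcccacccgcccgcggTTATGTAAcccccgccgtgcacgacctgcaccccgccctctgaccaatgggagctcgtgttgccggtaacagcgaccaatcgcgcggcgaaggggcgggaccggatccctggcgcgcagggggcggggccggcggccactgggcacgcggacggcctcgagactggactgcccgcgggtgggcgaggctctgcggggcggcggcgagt

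The 16 genes that were called in opposite directions all passed the interaction of genotype with tissue. The interaction is the difference between these 2 comparisons, so opposite calls make passing nearly certain and this is no separate evidence. S100a8 was higher in deficient tumors but lower in deficient normal colon, at 7.36 and 8.45 in deficient normal colon, against 11.70 and 11.85 in wild-type normal colon (−3.87, adjusted p = 0.00849). Evx1, a homeobox gene, read 12.12 and 10.27 in deficient tumors, against 7.59 and 7.09 in wild-type tumors (3.86), and in normal colon Evx1 read 5.72 and 5.48 in deficient mice, against 9.46 and 9.07 in wild-type mice, at least 5.46-fold. The P450 Cyp2c65 was at least 3.93-fold lower in deficient tumors, at 5.14 and 5.60 in deficient tumors, against 8.47 and 8.36 in wild-type tumors, and higher in normal colon, at 13.33 and 13.35 in deficient normal colon, against 7.99 and 9.69 in wild-type normal colon (4.50, adjusted p = 0.00614). The flavin monooxygenase Fmo5 read 6.66 and 5.46 in deficient tumors, against 8.30 and 8.34 in wild-type tumors (−2.27), and in normal colon Fmo5 read 10.43 and 10.10 in deficient mice, against 8.35 and 8.06 in wild-type mice (2.06). Over all called tumor genes, 302 of 1647 (18.3%) passed the interaction, against 4.03% of all genes tested; the 2 tests share the tumor arrays. The Hox genes Hoxb7 and Hoxb4 did not pass in tumors (0.92 and 0.68), while in normal colon Hoxb7 was at least 22.9-fold higher in deficient mice (adjusted p = 0.00681) and Hoxb4 was higher by 3.15 log2 units (adjusted p = 0.00863).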

How the data were processed

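Total RNA from 8 colon samples, 2 in each of 4 groups, was measured on Illumina MouseRef-8 v2 arrays. The deposited table holds, per the file headers, the non-normalized intensity of each probe (a mean over beads) and a detection p-value for it; the arrays were read with BeadStudio 3.2.7, per the submitters' processing notes. A second deposited table holds log2 values; set against the first, each was the log2 of the intensity over the array's mean, to within 1.7e-05, and it served as an alternative only. Arrays had 43.7% to 49.1% of probes above background and mean intensities between 1112.5 and 1181.52; the number of arrays limits the precision.

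Intensities were background-corrected with normexp (neqc of limma 3.58.1 in R 4.3.3, offset 16, negative control mean and spread inferred from detection p-values), quantile-normalized and put on the log2 scale. The 13327 probes with detection p under 0.01 on at least 2 arrays were fitted with limma as 4 group means (4 residual and 3.55 prior degrees of freedom). Contrasts were deficient minus wild type in tumors, the same in normal colon, and their difference (the interaction). P-values were adjusted by Benjamini-Hochberg over all probes, with a threshold of 0.05. The procedure was tested on simulated data. Gene names came from the platform annotation: 23978 probes had 1 symbol, 1719 had none and 8 symbols were updated. A gene is represented by its tested probe of highest mean, so genes with several probes may differ by probe. An "at least" fold sets the group mean against the lowest signal above background, or the dim probe's own if higher.

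The rule for named genes took Casp12, Casp1, Casp4, Pycard, Il1b, Il18, Nlrp3, Nod2 and Ripk2, the 15 largest rises and 15 largest falls past the threshold, and up to 6 members of each list by size of difference. Axin2, Fpr2, Hspa5, Tph1, Cyp1b1, Cyp2c65, Evx1, Fmo5, Mptx1, Prkg2 and the clock genes were chosen after their values were seen. Members and lists were chosen with earlier results of these data known. Promoters are RefSeq sequences of GRCm38.p6. Alternatives changed the samples fitted, weights, block, background correction, scaling, filter and arrays included. No genome was used here.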

Additional observations from a re-analysis of the deposited data

Results flagged for a closer look

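The effect of genotype differed between tumors and normal colon for 521 of 13327 probes (3.91%), by limma's interaction term with Benjamini-Hochberg adjustment. Groups of 2 arrays were too small to look for single outlying samples. Among the genes named above 55 passed, 34 with a positive interaction (the deficient minus wild-type difference was greater in tumors than in normal colon) and 21 with a negative one. The interactions below are in log2 units, and all 8 arrays enter each. For 26 of the 55 at least 1 of the 4 groups was above background on no array. These are Retnlg, Hdc, Cxcl1, Cxcl2, Il11, Osm, Il6, Pim1, Stfa1, H2-Eb2, Lgr5, Mex3a, Ascl2, Mmp10, Inhba, Cdh5, Cyp2c65, Ehhadh, Nr5a2, Itln1, Chga, Lor, Calm4, Krt1, Hoxb7 and Evx1. Their interactions are fitted against levels at the floor, so they are neither sizes nor bounds and have no order among the values below.

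The neutrophil and inflammatory genes had positive interactions: S100a8 8.79, S100a9 8.73, Cxcl1 6.99, Retnlg 6.69, Hdc 6.43, Il1b 5.85, Lcn2 5.51, Stfa1 5.40, Il11 5.12, Cxcl2 4.73, Saa3 4.40, Fpr2 4.02, Osm 3.49, Ccl4 3.29, Socs3 2.92, Il6 2.46, Fcer1g 2.24, Pim1 1.82 and Icam1 1.64. Growth and stem cell genes were Lgr5 at 4.14, Mex3a at 3.39, Ascl2 at 2.64 and Mcm2 at 1.76. Matrix and vessel genes were Mmp10 at 7.47, Mmp13 at 4.27, Inhba at 3.61, Col18a1 at 2.13, Plaur at 2.01 and Cdh5 at 1.67. Squamous, lectin and homeobox genes were Evx1 at 7.52, Itln1 at 7.50, Lor at 5.79, Calm4 at 5.75 and Krt1 at 2.87.

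The negative interactions included genes of epithelial metabolism and transport: Cyp2c65 −7.54, Cyp2c55 −6.91, Sult1d1 −6.31, Aqp8 −5.84, Hao2 −5.52, Selenbp1 −5.27, Mep1a −5.01, Sult1a1 −4.75, Fmo5 −4.33, Ehhadh −3.39, Cyp2s1 −3.34, Hpgd −2.42 and Acaa2 −2.47. The nuclear receptors were Vdr at −2.53, Nr5a2 at −2.46 and Nr1i2 at −2.12. The other 5 were Hoxb7 at −4.17, Chga at −2.78, Dnajb9 at −1.40, Des at −1.81 and H2-Eb2 at −1.80. Hoxb7 was the one of the 55 that was not called in tumors.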

How the results depend on the processing

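The number of tumor calls depended most on which arrays set the spread. With only the 4 tumor arrays 268 probes were higher and 497 lower, and with array weights 538 and 903. Leaving out 1 tumor array gave 445 to 852 higher and 636 to 1230 lower, and leaving out 1 normal array, an alternative chosen after seeing the data, 705 to 709 higher and 1078 to 1194 lower. In each of these the lone array of its group was assumed to vary like the other groups. Of the 2461 probes called, between 30.5% and 99.3% stayed called and none changed direction. Leaving out 1 normal array does not alter the tumor difference, and leaving out 1 tumor array cannot turn it where the groups do not overlap. The normal colon count of 292 was 641 with array weights, 193 with no filter on dim probes, 144 with probes detected on all 8 arrays, 192 with those detected on at least 2 of the 4 tumor arrays, and 38 to 470 with 1 array left out. The interaction count of 521 was 297 with no filter, 329 with detection on all 8 arrays, and 23 to 1141 with 1 array left out. Other background corrections, scalings and the deposited log2 values kept these counts within 1.5 times. The cause of the moves was not tested.

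Of the 149 called genes named in the text 67 stayed called under each of the 19 alternatives in which they were tested, and none changed sign; the filter for detection on all 8 arrays left only 69 of the 149 to test. Leaving out 1 array could not change the sign of a called gene, because the 2 arrays of each tumor group did not overlap. Of 18 uncalled ones 7 changed sign when 1 array was left out: Ppbp ran between −0.70 and 8.24, Arg1 between −0.15 and 7.60, Trp63 between −0.29 and 6.64, Tnnc2 between −1.58 and 7.30, Arntl between −0.60 and 0.01, Hoxb7 between −0.02 and 1.85 and Hspa5 between −0.30 and 0.03. Hspa5 was 0.00 with the deposited log2 values. The sign turned without wild-type tumor replicate 2 in Ppbp, Arg1, Trp63 and Arntl, wild-type tumor replicate 1 in Hspa5, deficient tumor replicate 1 in Tnnc2 and deficient tumor replicate 2 in Hoxb7. Replicate numbers are shared by the groups, and deviations of same-numbered arrays correlated between −0.0311 and 0.161. The largest value was between deficient tumors and deficient normal colon. With 2 arrays a group these values cannot decide whether same-numbered samples are paired. With the number as a replicate block 1087 probes were higher and 1474 lower in tumors, 281 were called in normal colon and 498 for the interaction.

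Signal over background limits the dim genes, whose folds are bounds, and 2 arrays a group limit all others.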
